A study of Mus musculus with 19 samples.

Results

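The germline genes examined here are 44 mouse genes of meiosis, the piRNA pathway and the pluripotency programme many of which are known to carry methylated promoters in somatic cells. They were taken by symbol with no filter on expression, and all 44 were matched among the 54146 genes listed in each RNA file. Messenger RNA was measured by poly(A) RNA sequencing of whole kidneys from mice of strain B6C3F1/J at 3 weeks of age (postnatal day 21). The KspCre DKO group (2 libraries, genotype KspCre Dnmt3ab f/f) carried floxed Dnmt3a and Dnmt3b together with a Cre driven by the promoter of Ksp-cadherin (Cdh16), which is active in tubule epithelium. The control group (3 libraries, genotype Dnmt3ab f/f) carried the same floxed genes without Cre. Stroma, vessels and immune cells of a whole kidney lie outside the reach of that Cre. In a whole organ fewer cells of a type and less RNA per cell cannot be told apart. Whether libraries of 1 genotype stem from different mice is not stated, and a p-value here measures only how these libraries spread.

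In somatic tissues many germline genes are held silent by DNA methylation of CpG-rich promoters. The de novo enzymes Dnmt3a and Dnmt3b place this methylation around implantation, and Dnmt1 with its partner Uhrf1 copies it at each cell division. A repressive complex built on E2f6 and on Mga with Max recognises E2F sites and E-boxes (CACGTG) in many of these promoters. Embryos that lack the de novo enzymes are known to transcribe several of the genes below outside the germ line. The Ksp-cadherin promoter becomes active later, once kidney epithelium has formed. The series also holds 14 bisulfite libraries, which are not analysed here, so promoter methylation itself was not measured in what follows.

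To show what the enzymes act on, the 250 bases before the transcription start are given for 8 of the germline genes and for Rec8, with each CpG in capitals (RefSeq, GRCm38.p6, 5′ to 3′ on the strand of the gene). Sycp2 (chr2:178407659-178407908, minus strand) and Tdrd9 (chr12:111971309-111971558, plus strand) had groups that did not overlap. Dazl (chr17:50293621-50293870, minus strand), an RNA-binding regulator of germ cell development, was above 0 in 1 control library alone. Ddx4 (chr13:112652311-112652560, minus strand) was above 0 in every library, and Sycp3 (chr10:88459337-88459586, plus strand) was above 0 in 1 KspCre DKO library alone. Mael (chr1:166238745-166238994, minus strand) and Smc1b (chr15:85131958-85132207, minus strand) were listed at 0 in every library, and the Smc1b window has the highest ratio of observed to expected CpG of the 9. Xlr3a (chrX:73097096-73097345, minus strand) has the lowest, 0.188, with 3 CpG. Rec8 (chr14:55617916-55618165, plus strand) is a meiotic cohesin gene outside the 44, with the largest log2 fold change among the tested genes of a wider meiotic and piRNA list. The annotated genes start further upstream than the window's end for Sycp2, Tdrd9, Ddx4 and Rec8, whose windows hold 118, 71, 250 and 164 bases of the gene's span.

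Sycp2: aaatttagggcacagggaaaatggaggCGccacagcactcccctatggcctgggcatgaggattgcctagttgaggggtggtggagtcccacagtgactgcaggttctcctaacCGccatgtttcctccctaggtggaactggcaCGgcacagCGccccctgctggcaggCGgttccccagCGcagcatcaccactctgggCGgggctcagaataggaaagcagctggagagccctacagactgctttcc

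Tdrd9: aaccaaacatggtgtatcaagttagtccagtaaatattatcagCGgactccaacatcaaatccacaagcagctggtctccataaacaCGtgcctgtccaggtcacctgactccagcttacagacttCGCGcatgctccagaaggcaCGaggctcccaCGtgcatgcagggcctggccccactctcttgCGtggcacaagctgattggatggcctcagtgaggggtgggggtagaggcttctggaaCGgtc

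Dazl: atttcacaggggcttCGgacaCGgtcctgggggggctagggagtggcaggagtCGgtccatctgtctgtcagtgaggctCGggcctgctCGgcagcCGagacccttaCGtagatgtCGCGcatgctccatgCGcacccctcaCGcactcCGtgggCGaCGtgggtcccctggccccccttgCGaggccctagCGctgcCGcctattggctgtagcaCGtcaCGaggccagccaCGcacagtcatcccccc

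Ddx4: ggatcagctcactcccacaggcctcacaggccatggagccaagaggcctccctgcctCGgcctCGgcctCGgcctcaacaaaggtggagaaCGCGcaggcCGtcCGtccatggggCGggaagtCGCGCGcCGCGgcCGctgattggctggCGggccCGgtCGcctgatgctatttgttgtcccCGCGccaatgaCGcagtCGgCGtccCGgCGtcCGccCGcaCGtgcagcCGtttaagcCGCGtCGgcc

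Sycp3: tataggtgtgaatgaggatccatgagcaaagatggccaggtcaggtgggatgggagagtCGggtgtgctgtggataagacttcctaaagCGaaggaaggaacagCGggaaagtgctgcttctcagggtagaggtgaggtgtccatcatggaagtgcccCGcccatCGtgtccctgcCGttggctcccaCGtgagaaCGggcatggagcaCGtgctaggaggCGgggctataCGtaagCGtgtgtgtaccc

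Mael: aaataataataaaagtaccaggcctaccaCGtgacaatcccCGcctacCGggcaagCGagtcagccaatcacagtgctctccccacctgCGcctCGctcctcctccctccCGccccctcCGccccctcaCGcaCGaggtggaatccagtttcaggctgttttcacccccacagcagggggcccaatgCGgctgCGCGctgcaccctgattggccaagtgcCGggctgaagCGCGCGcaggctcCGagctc

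Smc1b: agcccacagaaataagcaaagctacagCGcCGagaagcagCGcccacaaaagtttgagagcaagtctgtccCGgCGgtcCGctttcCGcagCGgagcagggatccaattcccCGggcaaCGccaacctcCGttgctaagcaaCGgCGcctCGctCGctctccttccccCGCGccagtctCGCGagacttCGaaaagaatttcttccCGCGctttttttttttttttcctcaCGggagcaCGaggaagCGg

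Xlr3a: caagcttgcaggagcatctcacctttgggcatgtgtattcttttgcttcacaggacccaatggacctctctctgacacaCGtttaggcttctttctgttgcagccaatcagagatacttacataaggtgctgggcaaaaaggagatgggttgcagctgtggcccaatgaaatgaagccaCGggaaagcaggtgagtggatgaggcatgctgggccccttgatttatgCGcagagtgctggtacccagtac

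Rec8: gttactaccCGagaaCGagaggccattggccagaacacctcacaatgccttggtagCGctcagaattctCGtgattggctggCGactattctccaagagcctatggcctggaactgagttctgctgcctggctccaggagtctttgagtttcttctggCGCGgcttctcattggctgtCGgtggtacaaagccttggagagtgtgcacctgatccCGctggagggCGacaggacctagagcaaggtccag

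The Ddx4 window holds 31 CpG, the Smc1b window 25, the Dazl window 20 and the Mael window 18, against 12 for Sycp3, 10 for Rec8, 8 for Tdrd9 and 7 for Sycp2. E-boxes start 64 and 43 bases before the start of Sycp3, 165 and 95 bases before that of Tdrd9, 29 bases before that of Ddx4 and 223 bases before that of Mael. The E2F core TCCCGC, or its reverse complement GCGGGA, starts 147 bases before the start of Sycp3, 136 before Ddx4, 143 before Mael, 47 before Smc1b and 38 before Rec8. Neither motif occurs in the Sycp2, Dazl and Xlr3a windows.

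Promoter windows of 300 bases (250 before and 50 after the start) were found for 36 of the 44 genes. Their median ratio of observed to expected CpG was 0.688, with a range of 0.265 to 1.08, against a median of 0.564 over 17492 protein-coding genes. The E-box CACGTG, which is its own reverse complement, was found in 16 of the 36 (44.4%), against 8.91% of the protein-coding genes. The E2F core, searched on both strands, was found in 14 (38.9%), against 28.4% of the protein-coding genes. Both motifs stood in the windows of 8 genes (22.2%), against 3.57%, and no E-box match overlapped an E2F match in the members' windows. These are matches of letters in a short window and no sign of binding.

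**Figure D1:**
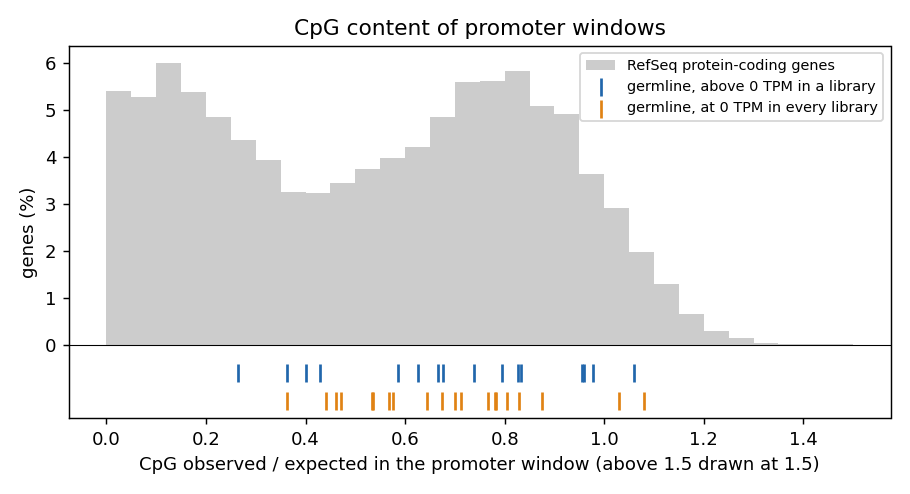
Ratio of observed to expected CpG (x axis) in 300-base promoter windows: the histogram gives the share of 17492 protein-coding genes (y axis, %), and the ticks below it are the 36 germline genes, those above 0 TPM in a library in the upper row and those at 0 in every library in the lower row. The ticks run from 0.265 to 1.08, and both rows cover much the same range.

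Germline genes at 0 in every library and those above 0 somewhere had similar CpG content. The median ratio was 0.707 over the 16 genes above 0 in at least 1 library and 0.687 over the 20 genes listed at 0. E-boxes stood in 9 of the 16 genes and in 7 of the 20.

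Of the 44 germline genes 22 gave no transcript reading in either genotype, and 3 of the others averaged 1 TPM or more. Levels are TPM, transcript abundances per length that sum to a fixed total in each library, from which read numbers cannot be had, so that depth is unknown. The 22 genes (50%) listed at 0 TPM in all 5 libraries compare with 22.2% of 20949 protein-coding genes, and the 22 (50%) above 0 in at least 1 library with 77.8%. Brdt, Ddx4, Piwil2 and Tdrkh were above 0 in all 5 libraries (9.09%), against 60.7% of protein-coding genes. KspCre DKO replicates 1 and 2 had 16 and 7 of the 44 above 0 TPM, against 15, 11 and 14 in control replicates 1, 2 and 3. The KspCre DKO libraries thus held both the highest and the lowest count.

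**Figure D2:**
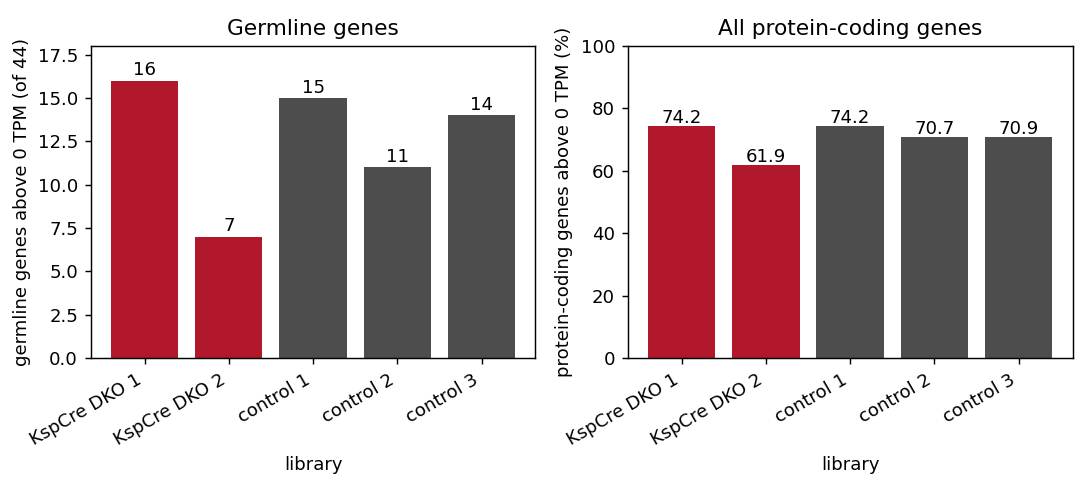
Left, number of the 44 germline genes above 0 TPM (y axis) in each library (x axis), and right, the share of all protein-coding genes above 0 TPM (%), with KspCre DKO libraries in red and controls in grey. KspCre DKO replicate 2 is lowest in both panels, at 7 genes and 61.9%.

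The libraries differed in how many genes they detected at all. KspCre DKO replicates 1 and 2 had 74.2% and 61.9% of protein-coding genes above 0 TPM, against 70.7% to 74.2% in the controls. Among the genes above 0, values below 0.1 TPM made up 8.63% and 0.734% in the KspCre DKO libraries, against 4.35% to 8.5% in the controls. Mitochondrially encoded genes held 22.1% and 31.0% of all TPM in the KspCre DKO libraries, against 18.2% to 23.2%. Values between 0 and 0.1 TPM were held by 3 and 0 of the 44 genes in KspCre DKO replicates 1 and 2, against 7, 3 and 6 genes in the controls. At these levels a gene listed at 0 in KspCre DKO replicate 2 was not detectable rather than shown to be absent. Counting only values of at least 0.1 TPM, the KspCre DKO libraries had 13 and 7 of the germline genes and each control had 8. Of all 54146 genes, 20510 and 14710 were above 0 in the KspCre DKO libraries, with 1770 and 108 of these below 0.1 TPM. In control replicates 1, 2 and 3, 20075, 18703 and 18488 were above 0, with 1706, 1151 and 804 of these below 0.1 TPM.

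Transcript levels of the 2 floxed genes did not separate the groups. Dnmt3a stood at 9.98 and 14.15 TPM in the KspCre DKO libraries, against 13.2, 18.97 and 15.49 TPM in the controls, and Dnmt3b at 2.29 and 3.25 TPM, against 1.82, 2.86 and 1.98 TPM. The values overlap for both genes (limma adjusted p = 0.709 and 0.866), and a TPM over a whole gene also takes in exons that are not floxed, so these levels do not check the labels. Cdh16, whose promoter drives the Cre, stood at 1121 and 906 TPM, against 895 to 986 TPM in the controls.

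No germline gene was above 0 in both KspCre DKO libraries and at exactly 0 in all controls. That pattern was met by 0 of the 44 genes, and by 0.0668% of protein-coding genes. It depends on the limit of exactly 0. Tex11 (0.18 and 1.14 TPM, against 0.02, 0 and 0 TPM) passed 0.1 TPM in both KspCre DKO libraries and in no control. So did Sycp2 (0.12 and 0.35 TPM, against 0.08, 0 and 0.03 TPM). The share of all genes with this pattern at 0.1 TPM was not counted. Dppa5a and Sycp3 were above 0 in 1 KspCre DKO library and at 0 in every control, a pattern met by 1.57% of protein-coding genes (4.55% of the 44). Dppa5a, an RNA-binding protein of pluripotent cells, was at 0.16 TPM in KspCre DKO replicate 1 and 0 in replicate 2. Sycp3, a lateral element protein of the synaptonemal complex, was at 0.09 and 0 TPM. Sycp3 shares 3724 bases of its span with Chpt1, which stood at 175 and 118 TPM in the KspCre DKO libraries and 113 to 195 TPM in the controls. The strand setting of the counting is not given in the sources used here, so 0.09 TPM of Sycp3 is uncertain.

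The converse was seen for 6 genes. Dazl, Syce1, Tdrd1, Tdrd9, Tex15 and Tuba3b were at 0 in both KspCre DKO libraries and above 0 in at least 1 control, a pattern of 3.39% of protein-coding genes (13.6% of the 44). Of these, Tdrd9 and Tex15 were above 0 in all 3 controls, a pattern of 0.444% of protein-coding genes (4.55% of the 44). The highest value of these 6 genes in any library was 0.09 TPM.

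Of the 44 genes 3 (6.82%), Syce2, Tdrkh and Xlr3a, reached a mean of 1 TPM over the 5 libraries, against 59.2% of protein-coding genes, and entered the main test, limma on log2(TPM + 1). None was called at adjusted p below 0.05 or at unadjusted p below 0.05. Over all 13963 genes tested, 0.165% were called in either direction and 10.3% had an unadjusted p below 0.05. The median log2 fold change, KspCre DKO minus control, was −0.60 over the 3 genes and −0.14 over all genes tested. Fitting every gene above 0 in any library, 22920 in all, brought in 22 of the 44, of which 9 had a positive and 13 a negative log2 fold change. Again none was called (adjusted p of 0.637 to 0.979), where 0.0175% of all genes in that fit were. Tex11 was the 1 gene of the 22 with an unadjusted p below 0.05, against 7.52% of all genes (3.06% with a higher level in KspCre DKO). With 2 libraries against 3 there are 10 splits, so an exact permutation test of 1 gene reaches p = 0.1 at best.

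**Figure D3:**
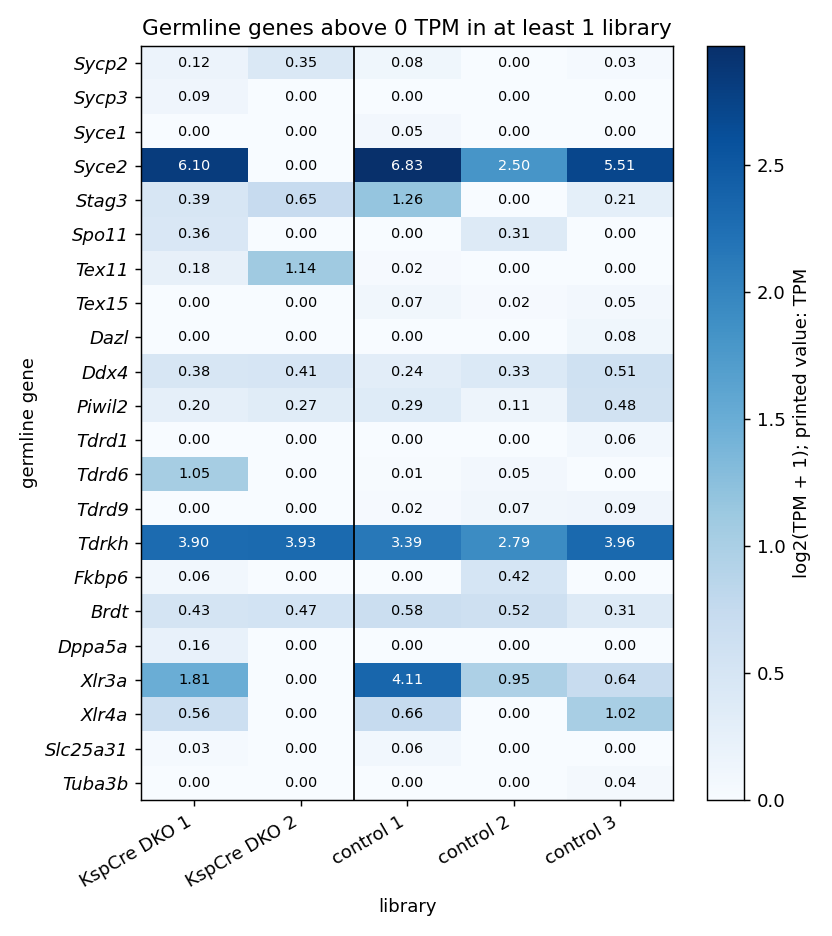
TPM of the 22 germline genes above 0 in at least 1 library (rows, grouped by role), in the KspCre DKO libraries left of the line and the controls right of it (columns), with colour on a log2(TPM + 1) scale. Syce2 and Tdrkh are the darkest rows, and most other cells lie below 1 TPM.

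Among the 9 genes of the synaptonemal complex and the chromosome axis, the protein scaffold that pairs homologous chromosomes in meiosis, 4 were listed at 0 everywhere. These were Sycp1 (the transverse filament), Hormad1 and Hormad2 (axis proteins that monitor pairing) and Smc1b (a meiotic cohesin subunit). Syce2 (ENSMUSG00000003824.12, chromosome 8), a central element protein, was the most abundant of the 44. It stood at 6.1 and 0 TPM in the KspCre DKO libraries, against 6.83, 2.5 and 5.51 TPM in the controls. KspCre DKO replicate 1 lies inside the control range and replicate 2 below it, so the groups overlap (log2 fold change −1.08 ± 0.76 SE, limma adjusted p = 0.663). Without KspCre DKO replicate 2 the log2 fold change was 0.33. Syce2 shares 1060 bases with Gcdh, a mitochondrial dehydrogenase gene of the kidney, which stood at 188 and 57.0 TPM, against 177, 155 and 143 TPM. Gcdh is thus also lowest in KspCre DKO replicate 2, and its part in the Syce2 values was not tested.

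Sycp2 (ENSMUSG00000060445.11, chromosome 2, 178345295 to 178407776), a lateral element protein, was at 0.12 and 0.35 TPM in the KspCre DKO libraries, against 0.08, 0 and 0.03 TPM in the controls. Both KspCre DKO values lie above all 3 controls. Sycp2 shares 1077 bases of its span with the pseudogene Gm18662, for which no TPM was found. The part of Gm18662 in the Sycp2 values was not tested. The log2 fold change of Sycp2 was 0.25 ± 0.11 (SE; fit of all genes above 0, limma adjusted p = 0.684). It was 0.11 without KspCre DKO replicate 2, 0.38 without replicate 1 and 1.25 with a pseudocount of 0.1 in place of 1. Stag3, a meiosis-specific cohesin subunit, stood at 0.39 and 0.65 TPM, against 1.26, 0 and 0.21 TPM. Its groups overlap, and its span overlaps Gpc2 by 6370 bases. Syce1, another central element protein, was read in control replicate 1 alone, at 0.05 TPM.

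Of the 5 genes of recombination and the meiotic programme, Ankrd31, which steers the breaks that start recombination, and Meioc, which sustains meiotic prophase, were listed at 0 everywhere. Tex11 (ENSMUSG00000009670.11, chromosome X, 100838648 to 101059639), an X-linked gene needed for crossing over, had the largest positive log2 fold change of the 22 genes fitted. It was at 0.18 and 1.14 TPM in the KspCre DKO libraries, against 0.02, 0 and 0 TPM in the controls. Both KspCre DKO libraries lie above every control, and replicate 2 lies far above replicate 1. Tex11 shares 2430 bases of its span with the pseudogene Gm19083, for which no TPM was found. The part of Gm19083 in the Tex11 values was not tested. The log2 fold change of Tex11 was 0.66 ± 0.25 (SE; fit of all genes above 0, limma adjusted p = 0.637). With KspCre DKO replicate 2 left out it was 0.23 and with replicate 1 left out it was 1.09, and with a pseudocount of 0.1 in place of 1 it was 2.47. The limma adjusted p ran between 0.0822 and 0.981 over the alternatives tried. Spo11, the enzyme that makes the breaks, was at 0.36 and 0 TPM, against 0, 0.31 and 0 TPM. Tex15, needed for break repair and for transposon silencing in the male germ line, was at 0 in both KspCre DKO libraries, against 0.07, 0.02 and 0.05 TPM.

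Groups without overlap were found for 4 germline genes. The 22 genes at 0 in every library cannot separate, which lowers the shares of the 44. The KspCre DKO libraries lay above all controls for 2 of 44 genes, Tex11 and Sycp2 (4.55%), against 7.21% of protein-coding genes, and below all controls for 2, Tdrd9 and Tex15 (4.55%), against 11% of protein-coding genes. Among genes above 0 in any library, 7.79% lay above all controls and 12.7% below. The germline genes above 0 number 22, with 2 above all controls and 2 below.

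**Figure D4:**
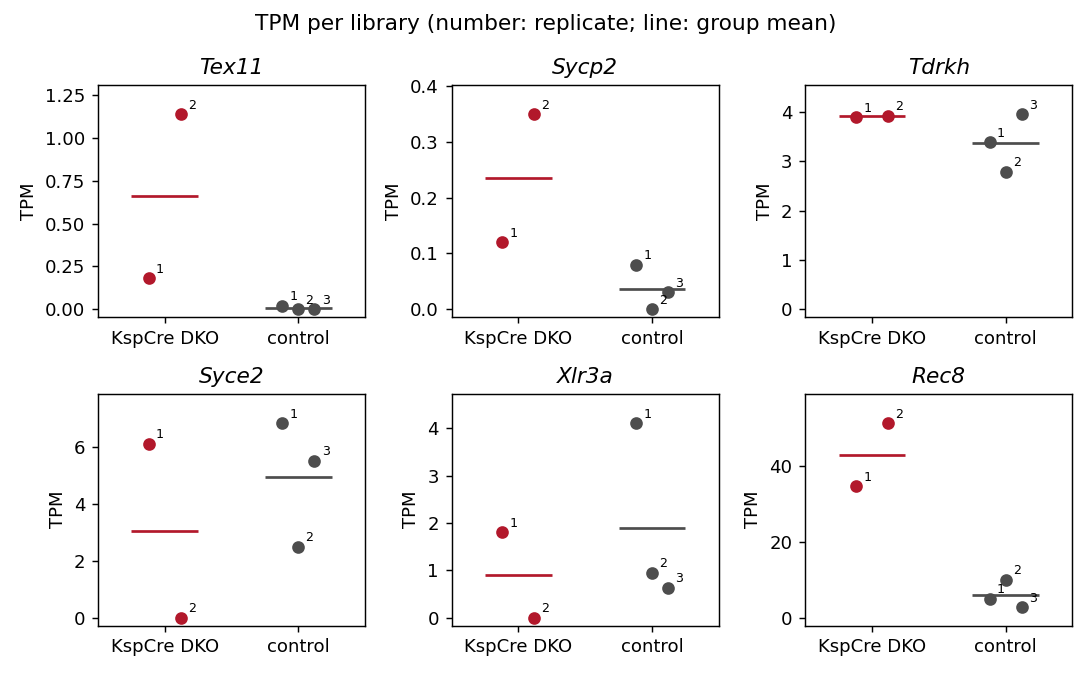
TPM (y axis) of 5 germline genes and of Rec8 in each KspCre DKO library (red, left) and control library (grey, right), with replicate numbers and the group mean as a line. Tex11, Sycp2 and Rec8 have both KspCre DKO points above the controls, and Tdrkh, Syce2 and Xlr3a overlap.

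Of the 14 genes of the piRNA pathway and the germ granule, where small RNAs that silence transposons are made, 6 were listed at 0 everywhere. These were Mael, Asz1, the helicase gene Mov10l1, the Argonaute gene Piwil1, Stk31 and Tex19.1. Tdrkh (ENSMUSG00000041912.12, chromosome 3), a mitochondrial tudor-domain protein that takes part in piRNA trimming, was read at a similar level in every library. It stood at 3.9 and 3.93 TPM in the KspCre DKO libraries, against 3.39, 2.79 and 3.96 TPM in the controls (log2 fold change 0.17 ± 0.34 SE, limma adjusted p = 0.888). Ddx4, the germ cell helicase known as Vasa, was read in every library, at 0.38 and 0.41 TPM, against 0.24, 0.33 and 0.51 TPM. Piwil2, an Argonaute protein that binds piRNAs, was likewise read in every library, at 0.2 and 0.27 TPM, against 0.29, 0.11 and 0.48 TPM. For both genes the KspCre DKO values fall inside the control range. Tdrd9, a tudor-domain helicase, was at 0 in both KspCre DKO libraries, against 0.02, 0.07 and 0.09 TPM. Fkbp6, a co-chaperone of the pathway, was at 0.06 and 0 TPM, against 0, 0.42 and 0 TPM. Tdrd1 was read in control replicate 3 alone, at 0.06 TPM, as was Dazl, at 0.08 TPM. Tdrd6, a tudor-domain protein that organises a germ granule of spermatids, stood at 1.05 and 0 TPM in the KspCre DKO libraries, against 0.01, 0.05 and 0 TPM in the controls. KspCre DKO replicate 1 lies far above every other library and replicate 2 is at 0, so the groups overlap. The log2 fold change was 0.49 ± 0.29 (SE; fit of all genes above 0, limma adjusted p = 0.732). Without KspCre DKO replicate 2 it was 1.01 and passed the test (limma adjusted p = 0.0231), in a fit that called 2.01% of all genes, and without replicate 1 it was −0.028. That fit has a single KspCre DKO library, which is assumed to vary like the controls.

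Of the 9 chromatin, transcription and pluripotency-associated genes, Taf7l, Zfp42 (Rex1), Dppa3 (Stella), Dppa4 and Rhox5 were listed at 0 everywhere. Brdt, a bromodomain protein of the testis, stood at 0.43 and 0.47 TPM in the KspCre DKO libraries, against 0.58, 0.52 and 0.31 TPM in the controls, with both KspCre DKO values inside the control range. Xlr3a (ENSMUSG00000057836.12, chromosome X), of a family of X-linked lymphocyte-regulated genes, stood at 1.81 and 0 TPM, against 4.11, 0.95 and 0.64 TPM (log2 fold change −0.60 ± 0.66 SE, limma adjusted p = 0.783). Without KspCre DKO replicate 2 the log2 fold change was 0.15. Xlr3a, Xlr3b and Xlr3c are close copies, and how reads were divided among them is uncertain. Their sum was 11.48 and 2.28 TPM, against 12.28, 10.2 and 7.14 TPM, again with KspCre DKO replicate 2 lowest. Xlr4a stood at 0.56 and 0 TPM, against 0.66, 0 and 1.02 TPM.

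Of the 7 genes of the germ cell surface, metabolism and cytoskeleton, 5 were listed at 0 everywhere. These were the surface proteins Tex101 and Dpep3, the retrogene Rpl10l, the transketolase-like Tktl2 and the tubulin gene Tuba3a. Slc25a31, an ADP/ATP carrier of the testis, was at 0.03 and 0 TPM in the KspCre DKO libraries, against 0.06, 0 and 0 TPM in the controls. Tuba3b was read in control replicate 3 alone, at 0.04 TPM.

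Summed over the 44 genes, the level was 15.82 and 7.22 TPM in the KspCre DKO libraries, against 17.67, 8.07 and 12.99 TPM in the controls. The means were 11.5 ± 6.08 TPM (SD, n = 2) and 12.9 ± 4.80 TPM (SD, n = 3), a log2 ratio of −0.16 that is smaller than the spread within the groups. Most of the sum came from Syce2, Tdrkh and Xlr3a. The genes below a mean of 1 TPM together stood at 4.01 and 3.29 TPM, against 3.34, 1.83 and 2.88 TPM, with KspCre DKO replicate 1 above the control range and replicate 2 inside it.

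No gene of a wider set of 41 meiotic and piRNA genes was called. In this set 12 genes were at 0 in every library and 9 were tested, with a log2 fold change above 0 for 4 and below 0 for 5 and none called (limma). Rec8 was the 1 tested gene with an unadjusted p below 0.05. Rec8 (ENSMUSG00000002324.8, chromosome 14, 55618002 to 55625395), a cohesin subunit that holds sister chromatids together in meiosis, stood at 34.7 and 51.37 TPM in the KspCre DKO libraries, against 5, 10.09 and 2.87 TPM in the controls. Both KspCre DKO libraries lie well above the highest control. The log2 fold change was 2.77 ± 0.45 (SE; limma adjusted p = 0.0762). It passed under 2 of 13 alternatives, a pseudocount of 5 among them (limma adjusted p = 0.0423), and over all 13 the adjusted p ran between 0.0228 and 0.38.

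Of the wider set, 5 genes lay below all controls in both KspCre DKO libraries (12.2%, against 11% of protein-coding genes). The 12 genes at 0 in every library cannot separate, which lowers the shares of the 41. The genes of the set above 0 number 29, with 5 below all controls, against 12.7% of all genes above 0. In the fit of all genes above 0 in any library, 4 of 29 genes had an unadjusted p below 0.05, against 1724 of all 22920 genes (7.52%). These were Rec8, Dmc1, Mybl1 and Trip13, and none was called. Dmc1, the recombinase of meiotic strand exchange, stood at 0.29 and 0 TPM in the KspCre DKO libraries, against 0.62, 1.51 and 1.89 TPM in the controls. Mybl1, a transcription factor of meiotic prophase, stood at 0.32 and 0 TPM, against 0.86, 0.45 and 0.67 TPM. Trip13, an ATPase that remodels the meiotic axis, stood at 0.2 and 0 TPM, against 0.95, 0.48 and 0.99 TPM. In all 3 genes the KspCre DKO values lie below every control, and KspCre DKO replicate 2 is at 0 (limma adjusted p = 0.575 for Dmc1, 0.641 for Mybl1 and 0.530 for Trip13). Hsf2bp, a recombination factor that binds Brca2, stood at 4.23 and 5.33 TPM, against 7.16, 7.16 and 11.68 TPM (limma adjusted p = 0.525). Zcwpw1, a histone reader of meiotic breaks, stood at 10.37 and 6.61 TPM, against 11.85, 11.87 and 13.8 TPM (limma adjusted p = 0.595). Tdrd7, a tudor-domain protein of the germ granule, stood at 19.5 and 36.75 TPM, against 16.87, 23.97 and 17.51 TPM (limma adjusted p = 0.684). Over the set, both KspCre DKO libraries lay above all controls for 1 gene (2.44%) and below for 5 (12.2%), against 7.21% and 11% of protein-coding genes.

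Segment markers of the kidney epithelium were compared as well. None of 12 segment markers was called (limma). An unadjusted p below 0.05 was found for 3 of the 12, against 1440 of all 13963 genes tested (10.3%). Aqp2, the water channel of the collecting duct, stood at 1414 and 1218 TPM in the KspCre DKO libraries, against 347, 240 and 426 TPM in the controls (limma adjusted p = 0.0512). Slc12a1, the salt transporter of the thick ascending limb, stood at 191 and 61.3 TPM, against 394, 562 and 519 TPM (limma adjusted p = 0.141). Umod, made in the same segment, stood at 285 and 193 TPM, against 802, 489 and 542 TPM (limma adjusted p = 0.173). In these 3 genes the groups do not overlap, as in Rec8. Slc12a3, another of the 12 markers, also separated, at 231 and 181 TPM, against 155, 133 and 127 TPM (limma adjusted p = 0.498). Of the 12, 2 lay above all controls (16.7%) and 2 below (16.7%), against 7.21% and 11% of protein-coding genes. The groups overlap in the others, among them Lrp2, Slc34a1 and Slc4a1. The part of segment composition in the Rec8 values was not tested.

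Markers of mature germ cells and of other cell types were measured alongside. The 16 genes of postmeiotic sperm summed to 1.85 and 1.09 TPM in the KspCre DKO libraries, against 1.42 to 1.64 TPM in the controls, with Prm1, Prm2, Tnp1 and Tnp2 listed at 0 everywhere. The 16 oocyte genes summed to 2.61 and 0 TPM, against 3.11 to 3.68 TPM, and the 1 tested, the histone chaperone gene Npm2, had a log2 fold change of −0.82 (limma adjusted p = 0.608). Of 10 pluripotency genes 7 were listed at 0 everywhere. Esrrb, a nuclear receptor gene, stood at 8.8 and 3.72 TPM, against 13.58, 18.27 and 19.33 TPM (limma adjusted p = 0.255).

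The 6 adrenal cortex genes summed to 1.07 and 3.89 TPM in the KspCre DKO libraries, against 14.7, 2.27 and 1.55 TPM in the controls, with Cyp11b1 above 0 in control replicate 1 alone. The 8 gonad somatic genes summed to 3.09 and 10.96 TPM, against 2.28 to 5 TPM, mostly Insl3, and Cyp19a1 and Hsd17b3 were listed at 0 everywhere. The gonad somatic sum exceeds that of the 44 germline genes in KspCre DKO replicate 2, and the adrenal sum comes near it in control replicate 1. The 5 lymphocyte genes summed to 2.78 and 0.38 TPM, against 1.58 to 6.81 TPM. The 4 macrophage genes summed to 41.7 and 44.6 TPM, against 65.6 to 86.2 TPM. The 3 adipocyte genes summed to 90.4 and 75.9 TPM, against 191 to 317 TPM, nearly all of it Fabp4. Adipoq and Plin1 were below 1 TPM in every library. Sums overlap for the endothelial genes (200.2 and 130.9 TPM, against 103.3 to 206.5 TPM) and the fibroblast genes (50.72 and 69.55 TPM, against 57.77 to 128.7 TPM). They also overlap for the erythroid genes (5195 and 5767 TPM, against 755.9 to 6691 TPM). The part of these cell types in the values above was not tested.

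Genes of the machinery that keeps germline genes silent were read in both groups. The list also holds Tet1, Tet2 and Tet3, which act against DNA methylation. Tet2 (log2 fold change −0.77) and Tet3 (−0.12) are among the tested genes counted next. Of 28 genes 26 were tested, with a log2 fold change above 0 for 8 and below 0 for 18, none called (limma) and a median log2 fold change of −0.31, against −0.14 over all tested genes. Setdb1, a histone H3 lysine methyltransferase, stood at 9.12 and 3.97 TPM in the KspCre DKO libraries, against 12.99, 14.06 and 14.12 TPM in the controls (limma adjusted p = 0.371). It was the 1 gene of the 26 with an unadjusted p below 0.05. E2f6 stood at 8.05 and 4.37 TPM, against 10.05, 10.59 and 9.78 TPM (limma adjusted p = 0.533). Ring1, of the polycomb complexes, and Ehmt1, a partner of Ehmt2 in H3 lysine methylation, had a log2 fold change of −0.79 for Ring1 (limma adjusted p = 0.503) and −0.63 for Ehmt1 (limma adjusted p = 0.528). Both KspCre DKO libraries lay below all controls for 9 of the 28 genes (32.1%), against 11% of protein-coding genes and 12.7% of genes above 0. These were Setdb1, E2f6, Ring1, Ehmt1, Pcgf6, Smchd1, Wdr5, Cbx3 and Hdac2, and in each of them KspCre DKO replicate 2 is the lower of the pair. L3mbtl2 was the 1 gene with both KspCre DKO libraries above all controls (3.57%), at 8.46 and 9.16 TPM, against 5.88, 6.6 and 5.88 TPM. Dnmt1, the maintenance enzyme, stood at 8.05 and 7.84 TPM, against 8.78, 8.04 and 8.35 TPM (limma adjusted p = 0.951).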

How the data were processed

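Whole-kidney poly(A) RNA libraries (2 KspCre DKO, 3 control) were analysed, grouped by title and genotype label. The deposited values are TPM per gene, to 2 decimals, with 0.01 the smallest above 0. RSEM 1.3.1, STAR 2.2.1, Trim Galore 0.5.0 and build mm10 are named, without roles, in the submitters' processing notes. Neither annotation release nor strand setting is given in the sources used here. Depth is unknown because TPM hold no read numbers, and a value of exactly 0 can be a failed estimate.

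Symbols came from a gene name table joined on Ensembl identifiers without their version, which matched 54079 of 54146. Gene types, positions (GRCm38.p6) and promoters came from RefSeq. limma 3.58.1 in R 4.3.3 was fitted to log2(TPM + 1), two-sided, with an intensity trend, on genes averaging 1 TPM or more over the 5 libraries, and Benjamini-Hochberg adjusted p below 0.05 was called. Genes below that mean were fitted with all genes above 0. Expected CpG is the product of C and G counts over length, averaged where a gene has several windows. Alternatives were other pseudocounts, filters, scalings and detection limits, no trend, a replicate block and each library left out.

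The genes and lists were chosen with earlier results of these data known. All 44 genes are named. Of other lists, up to 4 tested genes of smallest p and the targeted genes are named, and for the other markers and other genes without overlap, Chpt1, Gcdh, Gpc2 and the Xlr copies the choice followed their values. The promoter rule took Sycp2 and Tdrd9 as genes without overlap, and Dazl and Ddx4 as genes assumed to be at 0 everywhere, which they were not. Tex11 and Tex15, also without overlap, had no promoter window and could not be shown. The other 5 were chosen after seeing the data.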

Additional observations from a re-analysis of the deposited data

How the results depend on the processing

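Among germline genes past the filter the count called was 0 under all 13 alternatives. The main test held only 3 of them, and Xlr3a did not pass the filter without control replicate 1. No germline gene averaged 5 TPM (Syce2, the highest, averaged 4.19 TPM), so the filter at 5 TPM could give no other count. In the fit of all genes above 0, Tdrd6 was called without KspCre DKO replicate 2. Over all genes, 14 were called higher and 9 lower. The higher calls numbered 7 and 28 with pseudocounts of 0.1 and 5, 3 with no filter, 24 with median-of-ratios scaling, 26 without mitochondrially encoded genes and 6 without the trend. The lower calls numbered 1 with no filter and 3 without the trend. Leaving out 1 library gave 3 to 90 higher and 3 to 470 lower, the largest without KspCre DKO replicate 1. The number of germline genes above 0 differed by −1.83 on average, KspCre DKO minus control, by 2.0 at a limit of 0.1 TPM, and by −6.33 to 2.67 with 1 library left out, the highest without KspCre DKO replicate 2. Genes above 0 in KspCre DKO alone numbered 2, then 4 at a limit of 0.1 TPM and 0 to 4 with 1 library left out. For these alternatives the share of all genes was not counted. The log2 ratio of summed levels was −0.16, 0.089 without Syce2, and −0.84 to 0.29 with 1 library left out. It turned positive without control replicate 1 or KspCre DKO replicate 2. The log2 fold changes of Syce2 (−2.49 to 0.33) and Xlr3a (−1.34 to 0.15) with 1 library left out were positive without KspCre DKO replicate 2, and that of Tdrd6 (−0.028 to 1.01) was negative without replicate 1. Causes were not tested. A refit with 1 KspCre DKO library assumes that it varies like the controls. Equal replicate numbers were treated as names only. Deviations of same-numbered libraries from their group means correlated at 0.093 and 0.028. The deviations of 2 KspCre DKO libraries mirror each other, so these values cannot exclude a shared batch. With the replicate block, 47 genes were called higher and 28 lower, no germline gene among them. Rec8 passed there (log2 fold change 2.41, limma adjusted p = 0.0228). In that fit control replicate 3 has no partner, so the contrast rests on 2 libraries against 2.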
